A study of Mus musculus with 2 samples.

Results

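The genes described here are 10 genes of fatty acid binding, lipid uptake, lipid storage and cholesterol export, namely Fabp1, Fabp4, Fabp5, Cd36, Abca1, Abcg1, Lpl, Plin2, Cidec and Msr1. They were chosen by symbol, and all 10 were found among the 31053 genes of the deposited matrices. They were measured in 2 droplet single-cell libraries (10x Genomics 3′ chemistry, version 3) of lung immune cells sorted as CD45+ and unlabelled by a CD45 antibody given into the blood, which keeps cells that reside in the tissue. Both libraries came from adult mice that carried Gli1creERT and floxed Hhip. One library came from mice injected with oil and the other from mice injected with tamoxifen, which activates the Cre. As both carried the same genotype, tamoxifen itself and loss of Hhip cannot be told apart in this design. Gli1 is expressed in mesenchymal cells, so the Cre is not directed at the sorted cells, and Hhip encodes a binding protein of Hedgehog ligands. The labels used here do not say how many animals gave each library, nor their sex or their age beyond adult. With 1 library per group no test was possible, and every interval below is a 95% interval of counting error only, which leaves out the spread between animals.

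Alveolar macrophages live on the air side of the lung and take up and break down surfactant, which is rich in phospholipid and cholesterol. Fatty acids enter through CD36 or are freed from lipoproteins by lipoprotein lipase, are carried in the cytosol by fatty acid binding proteins, and are stored as droplets coated by perilipin 2 and CIDEC. Excess cholesterol leaves through the exporters ABCA1 and ABCG1. PPARγ drives part of this programme, and the LXR receptors drive the exporters.

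Cells were grouped by gates, that is by summed UMIs (counted RNA molecules) of 2 or 3 genes. The alveolar macrophage gate asked for at least 2 UMIs of Krt79 and Plet1, the C1q macrophage gate for at least 5 of C1qa and C1qb, the cDC1 gate for at least 2 of Xcr1 and Clec9a, and the cDC2 gate for at least 1 of Mgl2 and Cd209a. The Ly6i macrophage-like gate asked for at least 3 of Ly6i, Chil1 and Rnase2a, the endothelial gate for at least 2 of Cdh5 and Cldn5, the fibroblast gate for at least 3 of Dcn and Col1a2, and the T gate, used as background, for at least 1 of the 3 Cd3 chains. Levels are counts per 1000000 UMIs of the gate (CPM), and ratios are log2 of tamoxifen over oil. The 6794 kept oil cells had a median of 6360.5 UMIs and the 10138 kept tamoxifen cells a median of 6431. Of the deposited barcodes, 41 occurred in both libraries. The alveolar macrophage gate held 476 oil cells (7.01% of kept cells, interval 6.41 to 7.64) and 2507 tamoxifen cells (24.7%, 23.9 to 25.6), with median depths of 12636 and 10341 UMIs.

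Many cells passed more than 1 gate, and the gate for alveolar macrophages was mixed. It held 187 oil cells (39.3%) and 360 tamoxifen cells (14.4%) without a Krt79 UMI, which entered through Plet1 alone, and 101 and 132 of these also passed the cDC1 gate. In those cells Xcr1, the chemokine receptor of cDC1, stood at 162 and 141 CPM, against 3.03 and 10 CPM in the cells with Krt79. Results are therefore given for the gates as written and for separated gates. A separated gate keeps cells that pass no other gate (cells of both the C1q and cDC2 gates stay in the C1q gate) and asks for a Krt79 UMI in alveolar macrophages. That left 213 oil and 1477 tamoxifen alveolar macrophages, with median depths of 10874 and 9601 UMIs. In them all 9 further alveolar macrophage markers were found, at a summed 18269 CPM in oil and 12026 CPM in tamoxifen. Chil3 made up most of both sums, at 13971 and 8265 CPM. Ratios were -0.75 for Ctsk, -0.54 for Marco, -0.21 for Atp6v0d2, -0.16 for Ear2, -0.05 for Ear1, 0.13 for Siglecf and 0.45 for Car4. Summed markers of T cells stood there at 170.5 and 163 CPM, those of cDC1 at 421 and 501 CPM, and of 5 adipocyte markers 4 were at 0 in each library. Erythroid markers stood at 11.5 and 138 CPM and neutrophil markers at 58.5 and 90.6 CPM. The part of these differences, and of that in the alveolar macrophage markers, in the results below was not tested.

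The sequence just upstream of 2 of these genes is shown first, because it carries letters of a type known for PPAR and LXR receptors, and because the 2 genes differed in opposite directions in the alveolar macrophage gate. RefSeq promoter windows (GRCm38.p6) were found for 5 of the 10 genes, namely Fabp1, Cd36, Abca1, Plin2 and Cidec. Each line gives the 250 bases before the start in RefSeq, 5′ to 3′ on the gene's own strand, at chr6:71199629-71199878 (plus strand) for Fabp1 and at chr4:53159896-53160145 (minus strand) for Abca1.
Fabp1: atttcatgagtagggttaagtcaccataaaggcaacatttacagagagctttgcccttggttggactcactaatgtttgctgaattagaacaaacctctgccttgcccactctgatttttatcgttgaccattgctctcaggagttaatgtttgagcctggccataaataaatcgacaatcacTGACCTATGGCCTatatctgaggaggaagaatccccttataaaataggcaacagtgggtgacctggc
Abca1: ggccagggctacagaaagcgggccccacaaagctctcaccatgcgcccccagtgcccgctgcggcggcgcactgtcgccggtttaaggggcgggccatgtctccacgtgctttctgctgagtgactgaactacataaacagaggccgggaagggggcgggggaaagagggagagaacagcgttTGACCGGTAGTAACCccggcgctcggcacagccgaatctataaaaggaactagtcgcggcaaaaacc
The capitals in Fabp1 mark a match to AGGNCA, any 1 base, and AGGNCA again (DR1 type), letters of the kind that PPAR with RXR binds, here on the opposite strand. The match lies from -67 to -55 relative to the RefSeq start. GENCODE M21 places the start of Fabp1 at 71199827, inside the printed window and after the match. The last printed bases thus fall within the gene by that annotation. The capitals in Abca1 mark a match to GGTTA, any 5 bases, and GGTCA (DR4 type), letters of the kind that LXR with RXR binds, also on the opposite strand, from -67 to -53. These letters were written after that sequence was seen. Both strands were searched, and 0.338% of all 32851 windows of this length held the first pattern and 0.0457% the second. None of the other 3 members with a window matched either pattern, which says only that these letters are not in those windows. Binding was not measured, and whether these letters bear on the differences between the libraries was not tested.

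Among the fatty acid binding proteins, Fabp1 was higher and Fabp4 and Fabp5 were lower in tamoxifen than in oil alveolar macrophages. Fabp1 (ENSMUSG00000054422, chr6:71199827-71205023, plus strand) encodes the binding protein best known from liver. In separated alveolar macrophages it stood at 612 CPM in oil (interval 580.1 to 645) and 898 CPM in tamoxifen (883 to 914), a log2 ratio of 0.55 (0.47 to 0.63). The gate as written gave 332 and 700.4 CPM and a ratio of 1.08 (1.01 to 1.14), so the Plet1-only cells moved it past 2-fold. The median cell held 3.04 Fabp1 UMIs per 10000 in oil and 5 in tamoxifen, and the top 10% of cells held 46.6% and 43.3% of its UMIs.

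Fabp4 (ENSMUSG00000062515, chr3:10204088-10208576, minus strand), the adipocyte and macrophage form, stood at 426 CPM in oil (399 to 453) and 216 CPM in tamoxifen (208 to 223), a ratio of -0.98 (-1.09 to -0.87) in separated cells. At least 1 UMI was present in 71.4% of cells in oil and 50.8% in tamoxifen, and after thinning each cell to 1500 UMIs in 32% (25.7 to 38.9) and 21.4% (19.3 to 23.6). Both the level and the share of cells were thus lower in the tamoxifen library. The separated T gate gave 0.234% and 0.414% at the same depth, with unthinned shares of 0.673% and 1.25% and median depths of 5620 and 5104 UMIs. Fabp5 (ENSMUSG00000027533, chr3:10012548-10016607, plus strand), the epidermal form, stood at 772 CPM in oil (736 to 809) and 379.5 CPM in tamoxifen (369.6 to 389.7), a ratio of -1.02 (-1.1 to -0.95). Reads of a near copy in the annotation, Fabp5l2, could have been shared with Fabp5. The differences were smaller in the gate as written, at -0.58 (-0.67 to -0.50) for Fabp4 and -0.49 (-0.55 to -0.43) for Fabp5. Few cells weighed heavily: the 3 highest oil cells held 15.7% of Fabp4 and 14.8% of Fabp5 UMIs, and without the 3 highest cells of each library the ratios were -0.77 and -0.86.

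**Figure D1:**
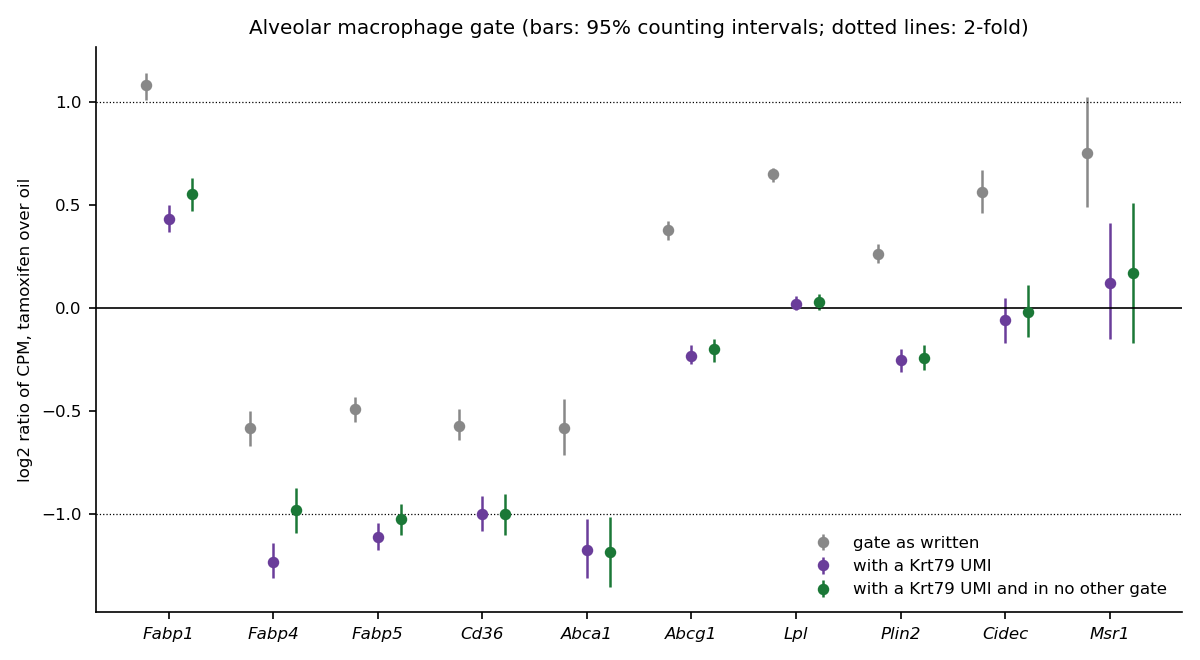
The log2 ratio of CPM, tamoxifen over oil, is plotted for each of the 10 genes in the alveolar macrophage gate as written (grey), with a Krt79 UMI required (purple) and separated (green). Bars are 95% counting intervals and dotted lines mark 2-fold. Fabp1 stays above 0 and Fabp4, Fabp5, Cd36 and Abca1 stay below 0 in all 3 cell sets, while Abcg1, Plin2 and Cidec change side.

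Uptake and lipoprotein genes did not differ together. Cd36 (ENSMUSG00000002944, chr5:17781690-17888801, minus strand), the fatty acid and oxidised lipoprotein receptor, stood at 463 CPM in oil (436 to 492) and 232 CPM in tamoxifen (224 to 239.8) separated alveolar macrophages, with a log2 ratio between -1.1 and -0.9. It was -0.57 (-0.64 to -0.49) in the gate as written and -0.77 without the 3 highest cells of each library. Lpl (ENSMUSG00000015568, chr8:68880491-68907448, plus strand), which encodes lipoprotein lipase, stood at 2289 CPM (2227 to 2353) and 2336 CPM (2311 to 2361), a ratio of 0.03 (-0.01 to 0.07). It was found in 97.2% of cells of each library. Msr1 (ENSMUSG00000025044, chr8:39581685-39642673, minus strand), the class A scavenger receptor, was found at 37.2 CPM (29.7 to 46.1) and 41.7 CPM (38.5 to 45.2), and its ratio of 0.17 (-0.17 to 0.51) cannot be told from 0 at this depth. The gate as written put Lpl at 0.65 and Msr1 at 0.75, both higher in tamoxifen.

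Of the cholesterol exporters, Abca1 was lower and Abcg1 nearly level. Abca1 (ENSMUSG00000015243, chr4:53030787-53159895, minus strand), which loads cholesterol onto lipid-poor apolipoprotein, stood at 173 CPM in oil (156 to 191) and 76.1 CPM in tamoxifen (71.7 to 80.7), a ratio of -1.18 (-1.35 to -1.01) in separated cells and -0.58 (-0.71 to -0.44) in the gate as written. After thinning, 18.4% (13.4 to 24.4) of oil and 10% (8.53 to 11.7) of tamoxifen cells held a UMI, against unthinned shares of 46.5% and 31.3%. The separated T gate gave 1.59% and 1.79% thinned and 4.04% and 4.91% unthinned. Abcg1 (ENSMUSG00000024030, chr17:31057675-31117988, plus strand), which exports cholesterol to HDL and is needed for lipid clearance by alveolar macrophages, stood at 1538 CPM (1488 to 1590.4) and 1335 CPM (1316 to 1354), a ratio of -0.20 (-0.26 to -0.15). It was 0.38 (0.33 to 0.42) in the gate as written, so its direction depended on the Plet1-only cells.

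The droplet coat genes differed little. Plin2 (ENSMUSG00000028494, chr4:86648386-86670060, minus strand), which encodes perilipin 2, stood at 1193 CPM (1148 to 1239) in oil and 1007 CPM (991 to 1023) in tamoxifen separated alveolar macrophages, a ratio of -0.24 (-0.30 to -0.18), and at 0.26 in the gate as written. Cidec (ENSMUSG00000030278, chr6:113424634-113435760, minus strand), which encodes a protein that fuses droplets, stood at 252 CPM (231 to 273) and 249 CPM (241 to 257), a ratio of -0.02 (-0.14 to 0.11), and at 0.56 as written. Cells differed less in the droplet, lipase and Abcg1 transcripts than in the binding proteins. In oil the top 10% of cells held 25.4% of Plin2, 25.6% of Lpl and 24.2% of Abcg1 UMIs, against 46.8% of Fabp4 and 53.9% of Fabp5 UMIs.

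Counted over the list, 1 of 10 members (Fabp1) was at least 2-fold higher and none at least 2-fold lower in tamoxifen in the alveolar macrophage gate as written, where 9.86% of 12459 genes with at least 20 UMIs were at least 2-fold apart either way. With a Krt79 UMI required, 3 members (Fabp4, Fabp5 and Abca1) were at least 2-fold lower and none was higher, where 8.75% of genes were 2-fold apart. Separated cells gave 2 lower (Fabp5 and Abca1) and none higher, against 6.84% of genes, with Cd36 and Fabp4 at the edge of 2-fold. Without the 3 highest cells of each library 1 of them, Abca1, was left at -1.07. The median ratio of the members was 0.32 as written and -0.22 in separated cells, where the median of all genes was 0.12 and 0.06. Median-of-ratios scaling moved all genes of the gate as written by 0.12, and none of the members was then 2-fold apart.

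**Figure D2:**
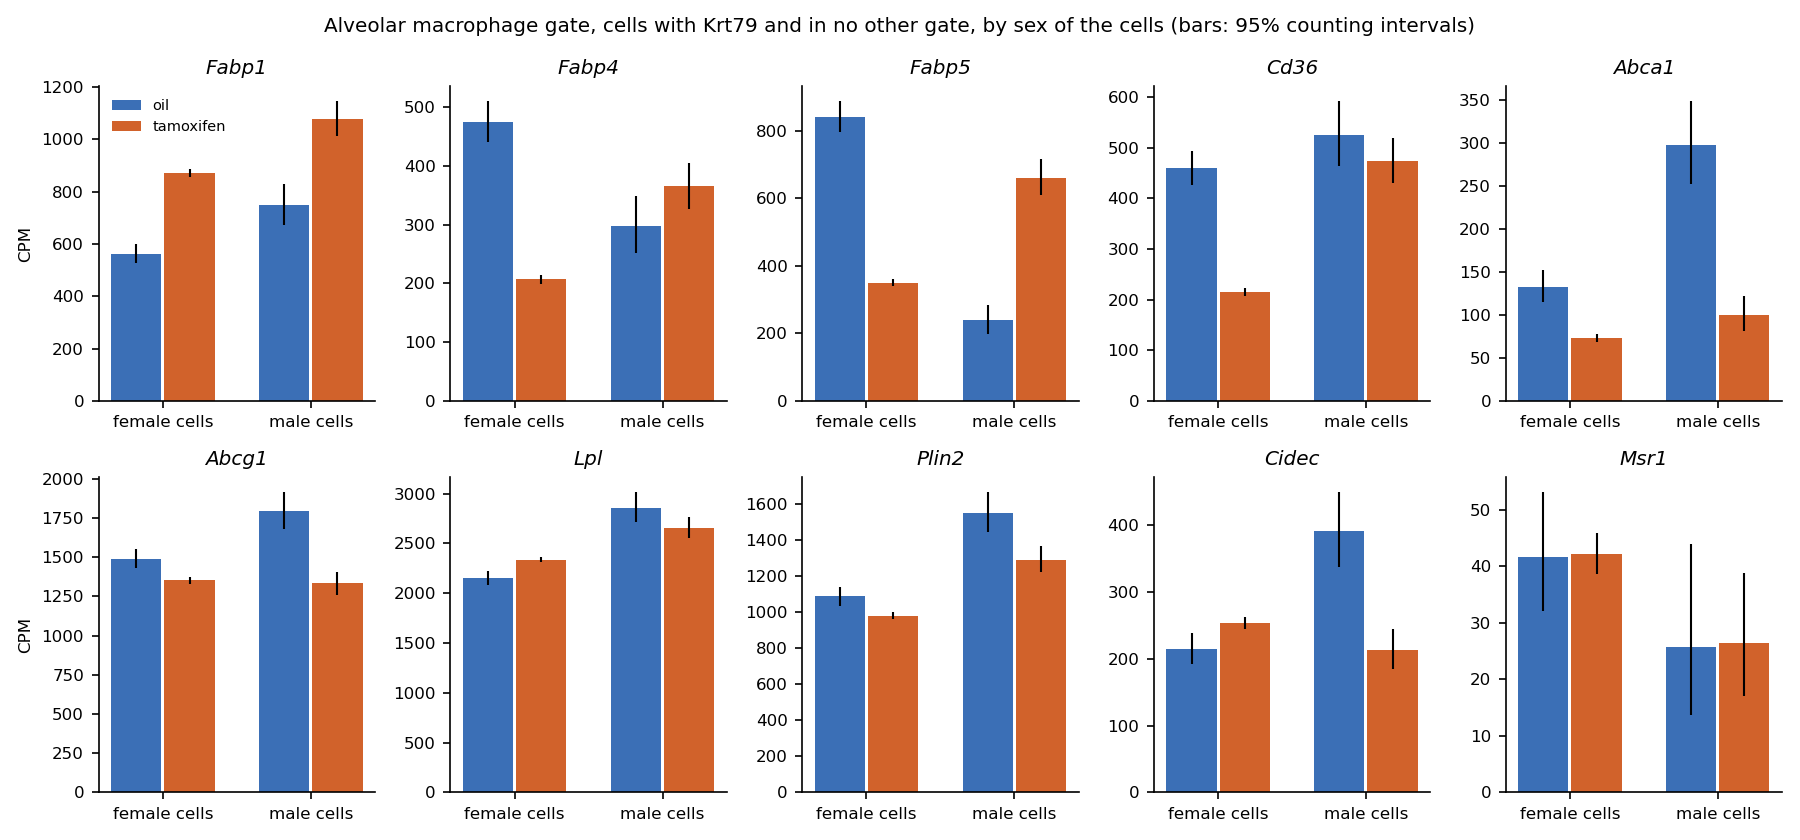
CPM of the 10 genes in separated alveolar macrophages is plotted for female and male cells of the oil (blue) and tamoxifen (orange) libraries, with 95% counting intervals. Fabp1 is higher and Abca1 lower in tamoxifen in both sexes, whereas Fabp4, Fabp5 and Cidec point in opposite directions.

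Cells of both sexes were present in each library, told apart by Xist and Y-linked transcripts, and Fabp4 and Fabp5 pointed in opposite directions in the sexes. Separated alveolar macrophages comprised 122 female and 52 male cells in oil and 1251 female and 94 male cells in tamoxifen. Fabp5 stood at 842 CPM (797 to 889) in oil and 349.9 CPM (339.7 to 360.3) in tamoxifen female cells. In male cells it stood at 239 CPM (198 to 285) in oil and 662 CPM (611 to 716) in tamoxifen. The log2 ratios were therefore -1.27 and 1.47, on opposite sides of 0. In female cells 3 of 10 members (Fabp4, Fabp5 and Cd36, all lower) were at least 2-fold apart, against 7.87% of genes, and in male cells 2 (Fabp5 higher and Abca1 lower), against 7.55%. Fabp4 was also lower in female tamoxifen cells, at 475 against 207 CPM, but not in male ones, at 298 against 365 CPM. Cd36 was 459 and 215 CPM in female cells (ratio -1.10, -1.22 to -0.98) and 525 and 474 CPM in male cells (-0.15, -0.37 to 0.08). The lower levels of Fabp4, Fabp5 and Cd36 described above were thus seen in female cells, which made up most of the gate, and that the sexes differ was not tested.

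Fabp1 and Abca1 kept their direction in both sexes. Fabp1 was 562 and 871 CPM in female cells (ratio 0.63, 0.53 to 0.73) and 748 and 1078 CPM in male cells (0.53, 0.36 to 0.70). Abca1 was 133 and 73.5 CPM in female cells (-0.85, -1.07 to -0.63) and 298 and 100.2 CPM in male cells (-1.57, -1.96 to -1.19). Cells of 1 sex in 1 library come from animals of unstated number, so the sexes are not replicates. In male cells the 3 highest cells held 29.8% of Fabp5 UMIs in oil and 26.3% in tamoxifen.

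Outside alveolar macrophages the 10 genes fell into 3 patterns in the oil library. Fabp1 and Cidec were nearly restricted to the alveolar macrophage gate, which held 93.9% and 97% of Fabp1 UMIs and 96.2% and 98.1% of Cidec UMIs in oil and tamoxifen. Lpl, Fabp4 and Abcg1 followed, with 77.3% and 94.8%, 82.1% and 93%, and 70.8% and 92.2%. Fabp5, Cd36, Abca1, Plin2 and Msr1 had most of their oil UMIs elsewhere, with 27.7%, 30.9%, 23.5%, 44.8% and 20.5% in that gate. In tamoxifen the gate held 44.2%, 57.7%, 46.9%, 73.6% and 49.3%, so most Cd36 and Plin2 UMIs lay inside it there. Over all kept cells Fabp1 was 2.58 and Cidec 2.08 higher on the log2 scale in tamoxifen, where alveolar macrophages were a larger share of cells. For such sums over a library, more cells of a type and more RNA per cell cannot be told apart.

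**Figure D3:**
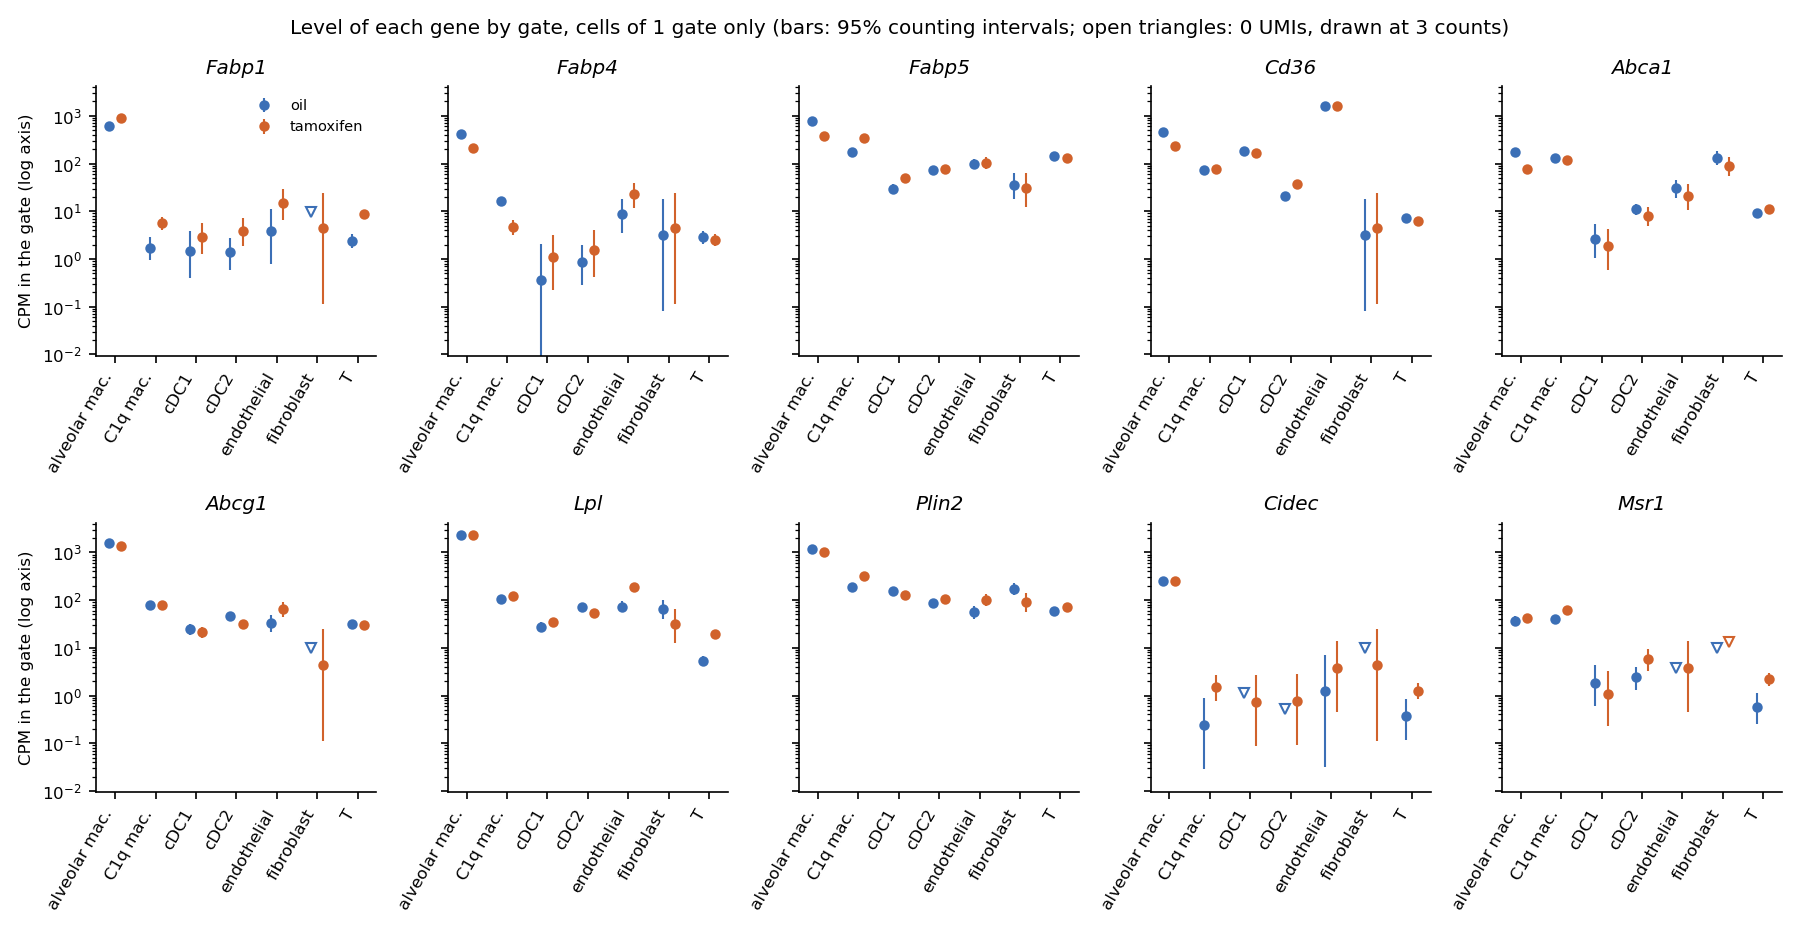
CPM of each gene in separated gates is plotted on a log axis for oil (blue) and tamoxifen (orange), with 95% counting intervals and open triangles for 0 UMIs, drawn at 3 counts. The Ly6i macrophage-like gate is not drawn because 6 oil cells were left in it. Cd36 is highest in the endothelial gate, at 1636 and 1585 CPM, and 8 of the other 9 genes are highest in alveolar macrophages in oil.

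Endothelial cells, which the sort was not meant to keep, were the highest gate for Cd36, known there as the receptor through which capillaries pass fatty acids to tissue. Cd36 stood at 1636 CPM (1549 to 1728) in 202 oil cells and 1585 CPM (1479.7 to 1697) in 178 tamoxifen cells, a ratio of -0.05 (-0.17 to 0.08). Summed endothelial markers stood at 9361 and 9775 CPM in these cells. Fabp4, a known capillary gene, was found in 3 oil and 4 tamoxifen cells of this gate. Lpl was 73 and 186 CPM there (ratio 1.35, 0.87 to 1.84), 1 of 6 members with at least 20 UMIs that was 2-fold apart, against 7.76% of genes. In the same gate summed markers of alveolar macrophages stood at 493 and 665 CPM, of neutrophils at 7.55 and 269.6 CPM and of platelets at 149.8 and 522 CPM, and median depths were 3286 and 1892 UMIs. Their part in the Lpl difference was not tested. Separated cDC1 also held Cd36, at 181 CPM in oil (165 to 198) and 164 CPM in tamoxifen (149 to 179.5), with a UMI in 87.6% and 79% of cells. By sex, Cd36 in separated cDC1 was 177 and 119 CPM in female cells (-0.57, -0.89 to -0.26) and 204 and 192 CPM in male cells (-0.09, -0.37 to 0.20). In female cDC1 it was thus lower in tamoxifen, as in female alveolar macrophages. Female endothelial cells gave -0.06 (-0.28 to 0.15). That these differences differ was not tested.

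C1q macrophages, the interstitial kind marked by complement C1q, showed higher Plin2, Fabp5 and Msr1 in tamoxifen. Separated cells numbered 901 in oil and 791 in tamoxifen, with median depths of 8269 and 8457 UMIs. In them summed markers of the Ly6i list stood at 329 and 541 CPM and those of neutrophils at 23.7 and 60.1 CPM. The separated Ly6i macrophage-like gate of tamoxifen held Plin2 at 404, Fabp5 at 653 and Msr1 at 88 CPM. The part of such cells or their RNA in the differences below was not tested. In C1q macrophages Plin2 stood at 188 CPM in oil (179 to 197) and 321 CPM in tamoxifen (308 to 334), a ratio of 0.77 (0.68 to 0.87). In female cells the ratio was 1.15 (1.03 to 1.28) and in male cells 0.10 (-0.10 to 0.30), so the difference rested on the female cells. Msr1 stood at 39.8 CPM (35.6 to 44.4) and 61 CPM (55.4 to 66.9), a ratio of 0.61 (0.40 to 0.83), with 0.66 in female and 0.71 in male cells. Fabp5 stood at 178 CPM (169 to 188) and 339 CPM (325 to 353), a ratio of 0.93 (0.83 to 1.02), but 3 cells held 51.9% of its oil and 33.6% of its tamoxifen UMIs. Without those cells the ratio was 1.39. By sex Fabp5 was 287 and 455 CPM in female cells (0.67, 0.57 to 0.77) and 31.2 and 168 CPM in male cells (2.43, 2.05 to 2.82). In thinned cells 6.25% (4.74 to 8.06) of oil and 12.6% (10.3 to 15.1) of tamoxifen cells held a UMI. The unthinned shares were 21.2% and 34.5%. Thinned T cells gave 9.7% (8.47 to 11) and 11.4% (10.4 to 12.5), and unthinned 25.7% and 28.3%. The share of C1q macrophages with Fabp5 lay below that of T cells in oil, and in tamoxifen the thinned intervals of the 2 overlapped.

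Abca1 in C1q macrophages was 132 CPM in oil (124 to 139.7) and 117 CPM in tamoxifen (109 to 125), a ratio of -0.17 (-0.30 to -0.04). In oil its order over gates ran from alveolar macrophages to fibroblasts (133 CPM, 95.4 to 180.3, 42 cells) and C1q macrophages, and the intervals of neighbours overlapped between the first pair and between the second. In tamoxifen C1q macrophages came first and alveolar macrophages, at 76.1 CPM, lower, with fibroblasts (88.2 CPM, 53.9 to 136, 34 cells) between them and overlapping both. Fabp4 in C1q macrophages stood at 16.2 and 4.59 CPM, with 3 cells holding 78.2% of its oil UMIs. In the separated C1q gate 1 member (Fabp1) was at least 2-fold higher and 1 (Fabp4) at least 2-fold lower, against 3.84% of genes. Fabp1 stood there at 1.7 and 5.71 CPM, 0.279% and 0.635% of its alveolar macrophage level. By the same measure Chil3 stood at 0.236% and 0.441% and Krt79 at 0.039% and 0.446%. Plet1 stood at 0.104% and 0.306% and Ear2 at 2.72% and 4.68%. Whether the Fabp1 counts in this gate are background was not tested. As written 3 members (Fabp1, Fabp5 and Cidec) were 2-fold apart, all higher, against 5.37% of genes.

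Several large ratios in other gates shrank or vanished in separated gates. In cDC1 6 of 10 members were at least 2-fold apart as written, all higher in tamoxifen, with Fabp1 at 3.66 and Fabp4 at 3.79, where 5.79% of genes were 2-fold apart. None of the 5 members with at least 20 UMIs was 2-fold apart in separated cDC1, where 5.03% of genes were. In cDC2 2 members (Fabp1 and Cidec, both higher) were 2-fold apart as written, against 4.06% of genes, and 1 of 7 (Msr1) in separated cells, against 5.8%, on 14 and 15 UMIs. Endothelial cells had 3 of 8 as written (Fabp4, Abcg1 and Lpl, all higher), against 6.54%. Fibroblasts had 4 of 8 as written, all higher, against 6.84%, and 1 of 3 (Lpl, lower) on 20 and 7 UMIs in separated cells, against 12.3%. The Ly6i macrophage-like gate held 38 oil cells, of which 6 passed no other gate. Its own marker list stood in this gate as written at 1381 and 2234 CPM (oil and tamoxifen), higher than in any other gate. Summed neutrophil markers stood there at 9219 and 28546 CPM and those of alveolar macrophages at 10177 and 6359 CPM. The gate was thus mixed, and its label is not borne out for all of its cells. There Fabp5 stood at 902 CPM in oil (830.3 to 979) and 740 CPM in tamoxifen (714 to 767), with 50.6% of the oil UMIs in 3 cells, and 1 member (Fabp1) was 2-fold apart, against 14.5% of genes.

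T cells serve as background, since droplets also hold free RNA. In the T gate as written 6 of 10 members were at least 2-fold apart, all higher in tamoxifen, against 7.2% of genes, and in separated T cells 4 were (Fabp1, Lpl, Cidec and Msr1), against 4.23%. Lpl went from 5.26 to 19.6 CPM and Fabp1 from 2.41 to 8.88 CPM in separated T cells. Relative to alveolar macrophages this was 0.23% and 0.839% for Lpl, 0.394% and 0.989% for Fabp1 and 0.145% and 0.51% for Cidec. The alveolar macrophage genes Ear2, Chil3, Krt79 and Plet1 lay at 0.153% to 0.257% in oil and 0.383% to 1.08% in tamoxifen. Krt79 and Plet1 are gate genes, so the gates by themselves hold their T cell percentages down. Ear2, at 0.257% and 1.08%, and Chil3, at 0.178% and 0.71%, are not gate genes. Lpl, Fabp1 and Cidec stood in T cells at percentages close to the range of the 4 genes. Whether their T cell levels are background was not tested. Fabp5 stood at 18.5% and 34.9%, Abca1 at 5.24% and 14.9% and Plin2 at 5% and 7.25%, above that range in both libraries. Msr1 at 1.57% and 5.29%, Abcg1 at 2.08% and 2.3%, Cd36 at 1.53% and 2.7% and Fabp4 at 0.669% and 1.18% also lay above it. In tamoxifen Fabp4 lay only just above it, and Fabp1 lay above it in oil alone. Msr1 had 8 and 47 UMIs in separated T cells, with 46.8% of the tamoxifen UMIs in 3 cells. Separated C1q macrophages stood at 107% and 146% of the alveolar macrophage level for Msr1 and at 76.2% and 154% for Abca1. The range covers free RNA of alveolar macrophages only, and whether T cells express these genes was not tested.

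**Figure D4:**
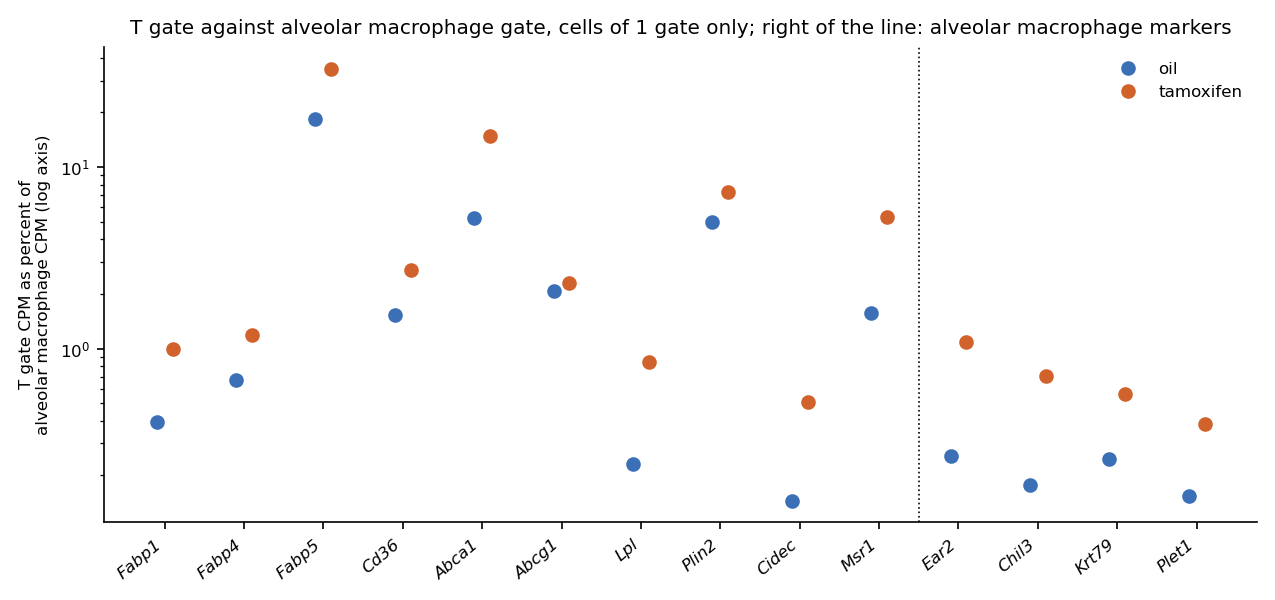
The level in separated T cells is plotted as a percentage of the level in separated alveolar macrophages of the same library, on a log axis, for the 10 genes and, right of the dotted line, 4 alveolar macrophage genes. Fabp1, Lpl and Cidec lie near the 4 genes on the right, and Fabp5 lies far above them at 18.5% and 34.9%.

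Other genes of the pathway, in 5 lists, mostly stayed within 2-fold in alveolar macrophages. As written, 0 of 9 measured genes of fatty acid uptake and activation were at least 2-fold higher and 1 (Acsl3, an acyl-CoA synthetase) lower. Droplet and triglyceride genes gave 0 higher and 1 lower of 12 (Gpihbp1, the endothelial anchor of lipoprotein lipase). Scavenger receptors gave 0 higher and 1 lower of 12 (Stab2), and the PPAR, RXR and fatty acid oxidation list gave 0 of 16 either way. Over all genes of this gate 9.86% were 2-fold apart, so about 1 gene in a list of this size is near the background. List medians lay between 0.07 and 0.43, where the median of all genes was 0.12. Acsl3 stayed past 2-fold in separated cells, at 8.41 and 1.92 CPM (-2.13, -3.02 to -1.21). Gpihbp1 did not, with 1 and 8 UMIs left, and Stab2 had 2 and 4. In separated cells Lipe and G0s2 were also past 2-fold higher, each from 2 oil UMIs, and Apoc1 past 2-fold lower.

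Of the genes with the highest level in each list, Dbi was higher, Mgll lower and the other 3 within 0.12 of level on the log2 scale in separated alveolar macrophages. Dbi, an acyl-CoA binding protein, stood at 546 and 746 CPM (0.45, 0.37 to 0.54), and Mgll, which splits monoglycerides, at 301 and 215 CPM (-0.48, -0.60 to -0.36). Npc2, which moves cholesterol out of lysosomes, stood at 426 and 392 CPM. Mrc1, the mannose receptor, stood at 1115 and 1048 CPM, and Hadha, of mitochondrial fatty acid oxidation, at 145 and 142 CPM. In C1q macrophages as written the lists gave 1 gene higher each, namely Slc27a1, Gpihbp1, Nr1h3, Olr1 and Angptl4, and 1 lower, Fabp7, where 5.37% of all genes were 2-fold apart. Nr1h3, which encodes LXRα, stood at 5.97 and 14.1 CPM in separated C1q macrophages (1.24, 0.73 to 1.76), and Olr1, an oxidised lipoprotein receptor, at 4.51 and 12.1 CPM (1.43, 0.86 to 2.02). Slc27a1, a fatty acid transporter, stood at 7.79 and 15.9 CPM (1.03, 0.57 to 1.49) and Angptl4, an inhibitor of lipoprotein lipase, at 0.487 and 2.92 CPM (2.59, 1.02 to 4.59). Fabp7 and Gpihbp1 were left with 14 and 7 and with 5 and 4 UMIs.

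Likeness of pattern was measured by Pearson's r over 16 values, 8 gates in 2 libraries, of log2(CPM + 10) among 2816 genes with at least 100 CPM in 1 of them. Those values share libraries and, as the gates overlap, cells, so r is a description. The nearest genes were Ear1 (0.97), Cidec and Acaa1b for Fabp1, and Cpne5 (0.99), Acaa1b and Capn1 for Cidec. For Lpl they were Pparg (0.97), Abcg1 and Ear10, and for Abcg1 Nceh1 (0.97), Lpl and Pparg. Fabp4 was nearest to Dhrs7b (0.93), Tardbp and Ch25h, and Fabp5 to Atp6v1c1 (0.94), Cstb and Osm. Plin2 was nearest to Atp6v1b2 (0.96), Atp6v0d1 and Gsap, Msr1 to Slc7a11 (0.96), Clec4d and Rnf149, and Cd36 to Rab11a (0.94), Fkbp1a and Arhgap31. Abca1 had the loosest match, to Igf1 (0.88), Cebpb and Itgb5.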

How the data were processed

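The deposited matrices give whole-number UMI counts per gene for each barcode, produced by the authors using Cell Ranger 5.0.1 with GRCm38 (mm10), per the submitters' processing notes. Which annotation they used: not given in the sources used here. Total counts were 57704412 UMIs over 10342 oil barcodes and 83730550 over 12980 tamoxifen barcodes. Barcodes with at least 300 genes and under 10% mitochondrial UMIs were kept: 6794 (65.7%) and 10138 (78.1%).

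UMIs were summed per gate and library and divided by the gate's total. Levels carry exact Poisson intervals, ratios the exact interval of 2 Poisson counts, and shares Clopper-Pearson intervals. All of them cover counting error only. A fold of 2, over genes with at least 20 UMIs in both libraries together, stands in for a call, and 0.5 UMI stood in place of 0. The ratio step was tested on simulated counts. Shares of cells with a UMI were also taken after thinning to 1500 UMIs, leaving out 7 oil and 32 tamoxifen separated alveolar macrophages that were shallower. Doublets were not removed in the values given. Scrublet (in scanpy 1.11.5) marked 0.0589% of oil barcodes by itself, so it had not worked there, and an alternative removed the 369 and 822 barcodes with the highest scores. Female cells had an Xist UMI and no UMI of 4 Y-linked genes, and male cells the reverse. Gene positions were looked up by identifier in GENCODE M21 (GRCm38). Named were all 10 members, the 3 genes most like each, and per list up to 3 genes furthest past 2-fold in the alveolar and C1q macrophage gates and the gene of highest level in the former. Lipe, G0s2 and Apoc1 fall outside that rule and were picked with their values in view. Of the listed genes 1, Clec7a, was not analysed here. The count of the cholesterol and lysosomal list in alveolar macrophages is not reported here. The members, gates and lists were chosen with earlier results of these data known, and the separated gates, the Krt79 requirement and the values by sex within separated gates were added after seeing the data.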

Additional observations from a re-analysis of the deposited data

Results flagged for a closer look

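The flagged values are pairs of log2 ratios, tamoxifen over oil, in which female and male cells lay on opposite sides of 0 and both counting intervals left out 0. The difference between the sexes was not tested, since each library is a single sample and the number of animals per sex is not stated. In the alveolar macrophage gate as written the female and male values were -0.74 and 0.40 for Fabp4, -0.65 and 1.48 for Fabp5, 0.48 and -0.36 for Abcg1, 0.37 and -0.16 for Plin2, and 0.83 and -0.85 for Cidec. In separated alveolar macrophages they were -1.20 and 0.29 for Fabp4, -1.27 and 1.47 for Fabp5, 0.12 and -0.11 for Lpl, and 0.24 and -0.88 for Cidec. The Lpl pair is small beside the others.

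In C1q macrophages as written the pairs were -0.67 and 1.21 for Fabp4 and -0.21 and 0.77 for Cd36. Plin2 in cDC1 as written gave 0.38 and -0.22. Fabp5 gave 0.31 and -1.47 in separated cDC2 and -0.34 and 0.56 in separated T cells, and Abca1 gave 0.39 and -0.48 in T cells as written.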

How the results depend on the processing

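No paired analysis was possible because each group is 1 library and the labels carry no replicate numbers. No library could be left out for the same reason. The number of members at least 2-fold apart in alveolar macrophages, 1 as written, was 0 with doubled gate cutoffs, with thinned cells and with median-of-ratios scaling, 2 in male cells, 3 with Krt79 required, 2 in separated gates, and 3 and 2 in separated female and male cells. Their median, 0.32, was -0.17 with cells in exactly 1 gate, 0.17 with doubled cutoffs and with thinning, 0.43 in female and -0.08 in male cells, 0.20 with scaling, -0.24 with Krt79 required, -0.22 in separated gates, -0.14 and -0.13 in separated female and male cells, and -0.17 in separated gates without the 3 highest cells of each gene. The cause of these shifts was not tested.

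In C1q macrophages the count of 3, all higher, was 1 in separated male cells. Separated gates gave 1 higher and 1 lower, and separated female cells 2 higher and 1 lower. The median of 0.76 was 0.58 with exactly 1 gate, 0.46 without Scrublet doublets, 0.52 with thinning, 0.20 in separated gates, 0.04 and 0.40 in separated female and male cells, and 0.29 in separated gates without the 3 highest cells. In cDC2 the count of 2, both higher, was 1 with exactly 1 gate, in separated gates and in separated female cells. It was 4 in female cells and without the 3 highest cells, and 0 in separated gates without them. Separated male cells also gave 2, but both were lower. The median of 0.49 was 0.08 with exactly 1 gate and in separated gates, 0.33 without Scrublet doublets, 0.64 and 0.30 in female and male cells, 0.31 and -0.86 in separated female and male cells, 0.67 without the 3 highest cells and -0.15 in separated gates without them.

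Some directions turned. In cDC1 Fabp1 was -0.38 in separated male cells, Abcg1 -0.20 with exactly 1 gate and separated and -0.21 also without the 3 highest cells, Msr1 -0.75 with exactly 1 gate and separated and -0.53 in separated female cells, and the median -0.15 in the first 3 of these settings. Of these cDC1 ratios, that of Fabp1 rested on 1 UMI in each library (-6.67 to 5.92). Those of Msr1 rested on 5 and 3 UMIs in separated cells (-3.44 to 1.61) and on 2 and 1 in separated female cells. In endothelial cells Fabp4 was -1.04 in separated female cells, on 7 and 2 UMIs (-4.35 to 1.35). There Abcg1 was -0.25 in male and -0.07 in thinned cells. In fibroblasts Fabp5 was -0.21 with exactly 1 gate and separated and -0.56 also without the 3 highest cells. The separated value rested on 11 and 7 UMIs (-1.81 to 1.29). The fibroblast median was -0.89 with exactly 1 gate and separated, -0.14 in male cells, -1.03 and -0.40 in separated female and male cells and -1.41 without the 3 highest cells. In T cells Abcg1 was -0.06 with exactly 1 gate and separated, -0.32 in separated male cells and -0.05 without the 3 highest cells. The Krt79 requirement and all separated settings were chosen after seeing the data. Depth limits Msr1, Fabp1 in separated cDC1 and the small Ly6i, endothelial and fibroblast gates.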

Other observations

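Other alveolar macrophage genes were read by sex in the same separated cells, after the values of Fabp5 were seen. Chil3, a secreted chitinase-like protein, stood at 16913 CPM in female cells of the oil library and 7724 CPM in those of the tamoxifen library, and at 6832 and 17089 CPM in male cells. Ctsk, a lysosomal protease, stood at 598 and 256 CPM in female cells and at 162 and 552 CPM in male cells. Both were thus highest where Fabp5 was high, in female oil and male tamoxifen cells. Ear2 stood at 1548 and 1456 CPM in female cells and at 1673 and 1302 CPM in male cells, and Pparg at 166 and 145 CPM and at 138 and 166 CPM. Siglecf, at 87.1 and 93.1 CPM and at 77 and 71.7 CPM, had ratios with intervals that span 0 in both sexes.

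Cells in no gate made up 19.7% of kept oil and 13.1% of kept tamoxifen cells. They held 25.1% and 13.4% of Fabp5 UMIs but 1.54% and 0.677% of Lpl UMIs.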
